A study of Arabidopsis thaliana with 8 samples.

Results

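The genes described here had a higher signal at 12.5 mM than at 1 mM CaCl2 in each of 4 lines of Arabidopsis thaliana. They were chosen by that difference. A probe set, the group of array probes meant for 1 transcript, was taken when its mean signal over the 8 arrays was at least 20 and its log2(signal + 16) was higher at 12.5 mM by 0.5 or more, which is 1.41-fold, in every line. Of 22746 gene probe sets, 15555 had a mean signal of at least 20, and 44 of these, 0.283%, met the rule. The rule leaves out by name a set of anthocyanin, iron-deficiency, cold, glycosyltransferase, cytochrome P450 and transcription factor genes, which removed 6 and left 38 members. Since the change with CaCl2 chose the members, it is a description here, with no test. The opposite rule, with a signal lower by as much in every line, was met by 0.617% of the probe sets tested.

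Whole plants were grown on sterile sand with Long Ashton nutrient solution, and their total RNA was hybridised to Affymetrix ATH1 arrays, which carry probe sets for Arabidopsis genes. There were 2 laboratory lines, labelled calcicole and calcifuge (lab calcicole and lab calcifuge in the plots), and 2 wild ecotypes, labelled by high and by low soil pH (wild high and wild low soil pH in the plots). The lab calcicole and the high-pH ecotype are grouped here as calcicole-class lines, and the lab calcifuge and the low-pH ecotype as calcifuge-class lines. The labels do not call the ecotypes calcicole or calcifuge. Each line was given 1 mM or 12.5 mM CaCl2 and has 1 array at each dose, so no line was repeated within a dose. The labels used here do not name the accessions, their ages or the length of the treatment. They do not say how the lines differ beyond these names and their lab or wild origin.

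Calcicoles are plants of lime-rich soils, and calcifuges are plants of acid soils. In plants, extra calcium is moved out of the cytosol into the vacuole and the cell wall by pumps and exchangers, so that cytosolic calcium stays low. CaCl2 also brings chloride and raises the osmotic strength of the solution. The families met below have separate roles: methionine gamma-lyase breaks methionine down, tau-class glutathione transferases conjugate glutathione to reactive or foreign compounds, cation efflux proteins carry metal ions out of the cytosol, elongation factor 1B recharges the factor that brings aminoacyl-tRNA to the ribosome, and TBL (TRICHOME BIREFRINGENCE-LIKE) proteins include enzymes that acetylate cell wall polysaccharides.

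Only 9 of the 38 members are paired with a single gene in the platform annotation used here. They are MGL, GSTU16, AT1G79520, AT5G12110, TBL26, AT4G32920, AT5G62210, AT2G21820 and AT2G01220. Another 3 probe sets are paired with several genes, and 26 are unnamed here and go by their probe set identifiers. Single-gene probe sets were 23.7% of the members and 54.6% of all probe sets tested. The rule's exclusions work by gene symbol and could not be applied to the unnamed members or to those paired with several genes. Anthocyanin, glycosyltransferase, cytochrome P450, transcription factor or other genes of the left-out kinds may therefore be among them.

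The arrays had similar scales. The median signal of an array lay between 42.4 and 47.8, and between 27.2% and 29.6% of gene probe sets had a signal under 16. The members were brighter than the average probe set, with a median mean signal of 140 against 86.4 over all tested. The added 16 shrinks the log2 change of dim probe sets, so the rule is harder for dim ones to meet. Among the members 7 had a mean signal under 50, 18 lay between 50 and 200, and 13 reached 200 or more. A signal under 16 on at least 1 array occurred in 10 members, 3 of them single genes, and for these the size of a log2 change depends on the 16 added before the logarithm.

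Averaged over the 4 lines, the members' signals at 12.5 mM were higher by a median of 1.095 on the log2 scale, with a range of 0.66 to 2.26, while the median over all probe sets tested was 0.006. The members were not evenly higher in every line. The median change of the members was 1.21 in the calcicole, 1.03 in the calcifuge, 0.78 in the high-pH ecotype and 1.13 in the low-pH ecotype. The high-pH ecotype had the smallest change of the 4 in 18 members and the largest in 3, and no member passed 1.28 there. In the same line 5.79% of all probe sets tested were higher by 0.5 or more, against 10.1% to 11.5% in the other lines.

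**Figure D1:**
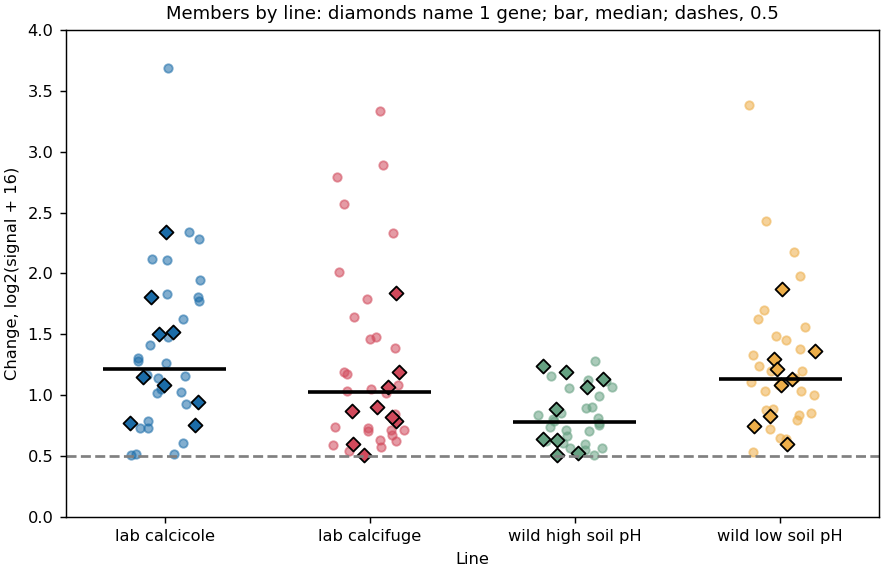
The change of each member in log2(signal + 16) from 1 to 12.5 mM CaCl2 (vertical axis), by line (horizontal axis), with diamonds for the 9 single genes, dots for the other members, black bars for the medians and a dashed line at the rule's minimum of 0.5. The high-pH points end at 1.28, and the other lines have points above 3.

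On the log2(signal + 16) scale a change of at least 2-fold was seen in 27 members in the calcicole, 20 in the calcifuge, 10 in the high-pH ecotype and 25 in the low-pH ecotype. It was seen in every line in 2 members, the unnamed 255056_at and 250083_at. The added 16 lowers the fold of dim probe sets, and on the signals alone 8 members were at least 2-fold higher in every line: these 2, AT4G32920, AT5G62210, 248867_at, 256245_at, 265091_s_at and 266772_s_at. The spread of a member's change over the lines had a median of 0.94 from the smallest to the largest, and ran from 0.24 for 249152_s_at to 3.13 for 262128_at. After 262128_at the most uneven were 265091_s_at, 252123_at, AT2G21820 and 246038_s_at, with ranges of 2.34, 2.18, 1.82 and 1.81. After 249152_s_at the most even were GSTU16, 266690_at, AT5G12110 and 262118_at, with 0.25, 0.46, 0.47 and 0.49.

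The separation of the doses over all arrays is stricter than a change within each line. In 14 members all 4 signals at 12.5 mM lay above all 4 at 1 mM, which was so for 1.27% of all probe sets tested. The rule used this contrast, so the share is given only for reference. In the other 24 members at least 1 line at 1 mM lay above another line at 12.5 mM.

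MGL, methionine gamma-lyase, splits methionine into methanethiol, ammonia and 2-oxobutyrate. Its signal at 1 and 12.5 mM was 157 and 474 in the calcicole, 127 and 244 in the calcifuge, 294 and 556 in the high-pH ecotype, and 164 and 403 in the low-pH ecotype. The doses overlapped, as the high-pH ecotype at 1 mM lay above the calcifuge at 12.5 mM. On the log2 scale the changes were 1.50, 0.87, 0.88 and 1.22 in that order of lines, with a mean of 1.12 ± 0.30 (SD, n = 4 lines).

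GSTU16, a tau-class glutathione transferase, had the smallest mean change of the members. The signals at the lower and the higher dose were 93.4 and 169 in the calcicole, 90.1 and 135 in the calcifuge, 66.9 and 113 in the high-pH ecotype, and 74.0 and 135 in the low-pH ecotype. All the signals at 12.5 mM lay above all those at 1 mM, and the lines were close to each other. Its changes were 0.75, 0.51, 0.64 and 0.75, a mean of 0.66 ± 0.12 (SD, n = 4 lines).

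AT1G79520 belongs to the cation efflux family of metal tolerance proteins. It gave 83.8 and 205 in the calcicole, 81.9 and 153 in the calcifuge, 236 and 374 in the high-pH ecotype, and 90.8 and 259 in the low-pH ecotype. The high-pH ecotype stood above the others at both doses, and its 1 mM signal lay above both lab lines at 12.5 mM. The change was largest in the low-pH ecotype, at 1.36, and smallest in the high-pH ecotype, at 0.63 (mean 0.98 ± 0.33, SD, n = 4 lines).

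AT5G12110 encodes a beta subunit of elongation factor 1B, which exchanges GDP for GTP on elongation factor 1A. Signals at 1 and 12.5 mM were 48.9 and 94.4 in the calcicole, 38.0 and 97.1 in the calcifuge, 128 and 324 in the high-pH ecotype, and 121 and 226 in the low-pH ecotype. Both wild lines at 1 mM stood above both lab lines at 12.5 mM. The changes of 0.77, 1.07, 1.24 and 0.82 had a mean of 0.97 ± 0.22 (SD, n = 4 lines).

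TBL26 is a member of the TBL family of polysaccharide acetylation proteins. At 1 and 12.5 mM its signal was 224 and 674 for the calcicole, 147 and 358 for the calcifuge, 495 and 711 for the high-pH ecotype, and 210 and 812 for the low-pH ecotype. Among the 9 single genes it was the brightest, and the calcifuge was its dimmest line at both doses. The changes were 1.52, 1.19, 0.51 and 1.87, so the high-pH ecotype, which started highest, had the smallest (mean 1.27 ± 0.58, SD, n = 4 lines).

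**Figure D2:**
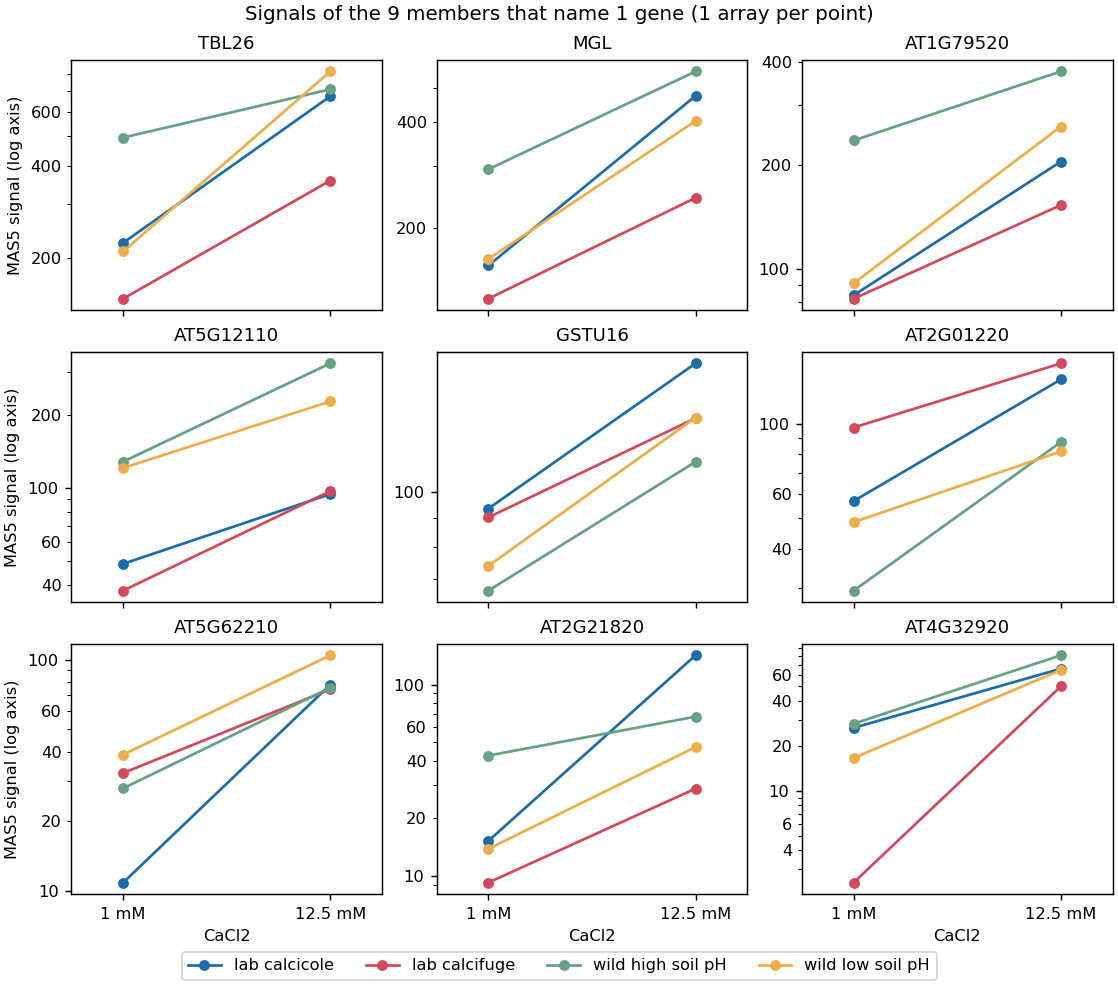
MAS5 signal (vertical log axis, 1 array per point) of the 9 single-gene members at 1 and 12.5 mM CaCl2 (horizontal axis), with a line joining the doses of each plant line. Every line slopes upward, as the rule requires, and the doses do not overlap in AT4G32920, AT5G62210 and GSTU16.

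The next genes had lower signals. AT4G32920, a glycine-rich protein gene, was at 26.4 and 65.6 in the calcicole, 2.44 and 49.9 in the calcifuge, 28.1 and 80.7 in the high-pH ecotype, and 16.6 and 64.4 in the low-pH ecotype. The doses did not overlap, and the calcifuge at 1 mM stood far below the other arrays. The mean change was 1.30 ± 0.39 (SD, n = 4 lines) and became 1.97 when the value added before the logarithm was 2.51, the 10th percentile of the gene signals, in place of 16.

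AT5G62210 belongs to the family of the embryo-specific protein ATS3. It was at 10.9 and 77.9 in the calcicole, 32.3 and 74.4 in the calcifuge, 27.8 and 75.5 in the high-pH ecotype, and 38.9 and 104 in the low-pH ecotype. The 12.5 mM signals were close in 3 lines, and the calcicole, lowest at 1 mM, had the largest change. The changes were 1.80, 0.90, 1.06 and 1.13 (mean 1.23 ± 0.40, SD, n = 4 lines).

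AT2G21820 had signals of 15.2 and 142 in the calcicole, 9.22 and 28.6 in the calcifuge, 42.5 and 67.9 in the high-pH ecotype, and 13.8 and 47.1 in the low-pH ecotype. The calcicole at 12.5 mM stood apart from all other arrays. Its change there was 2.34, against 0.82, 0.52 and 1.08 in the other lines (mean 1.19 ± 0.80, SD, n = 4 lines).

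AT2G01220 gave 56.8 and 138 in the calcicole, 97.4 and 156 in the calcifuge, 29.5 and 87.5 in the high-pH ecotype, and 48.7 and 81.7 in the low-pH ecotype. Its changes were 1.09, 0.60, 1.19 and 0.60 (mean 0.87 ± 0.31, SD, n = 4 lines). It is the only single-gene member with another probe set on the array, 265793_at, and the 2 disagree. The changes of the second probe set were -0.16, 0.38, -0.01 and 0.16, with a mean of 0.09 ± 0.23 (SD, n = 4 lines) and signals between 65.6 and 105 on all arrays, so the higher signal of this gene at 12.5 mM rests on 1 of its 2 probe sets.

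The largest change of any member belonged to 262128_at, which is unnamed here. Its signal was 21.4 and 468 in the calcicole, 18.8 and 74.7 in the calcifuge, 89.9 and 140 in the high-pH ecotype, and 19.9 and 359 in the low-pH ecotype. The calcicole and the low-pH ecotype were near the lowest signals at 1 mM and gave the highest at 12.5 mM, with changes of 3.69 and 3.39, against 1.38 and 0.56 in the calcifuge and the high-pH ecotype. The mean was 2.26 ± 1.52 (SD, n = 4 lines).

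250083_at, unnamed here, was higher by more than 2-fold in every line on both scales. It gave 169 and 632 in the calcicole, 169 and 1267 in the calcifuge, 231 and 520 in the high-pH ecotype, and 237 and 618 in the low-pH ecotype. The lines were close at 1 mM, and the calcifuge stood above the rest at 12.5 mM. The other member past 2-fold on the log2(signal + 16) scale, 255056_at, was dim, with signals between 2.63 and 18.8 at 1 mM and between 28.6 and 72.0 at 12.5 mM.

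The member with the highest mean signal, 708, was 258321_at. Its signal was 859 and 2105 in the calcicole, 166 and 358 in the calcifuge, 209 and 340 in the high-pH ecotype, and 243 and 1382 in the low-pH ecotype. The calcicole stood highest at both doses, and only the low-pH ecotype came near it, at 12.5 mM. The most even member, 249152_s_at, had changes of 0.60 to 0.84, from 55.4 to 108 in the calcicole, 278 to 473 in the calcifuge, 84.2 to 135 in the high-pH ecotype, and 88.4 to 170 in the low-pH ecotype.

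Several bright unnamed members stood highest in the calcifuge or the low-pH ecotype at 12.5 mM. 252123_at was at 128 and 611 in the calcicole, 239 and 1876 in the calcifuge, 428 and 713 in the high-pH ecotype, and 342 and 754 in the low-pH ecotype. 254283_s_at had calcifuge signals of 349 and 1819, against 178 to 395 in the other lines at 1 mM and 369 to 677 at 12.5 mM. 246038_s_at had its lowest signal, 85.0, in the calcifuge at 1 mM and its highest, 1449, in the low-pH ecotype at 12.5 mM. Their changes in the calcifuge were 2.89, 2.33 and 2.57, beside 0.71, 0.74 and 0.75 in the high-pH ecotype.

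264400_at and 256245_at, also unnamed, were instead highest in the calcicole. 264400_at gave 422 and 2114 there, 150 and 231 in the calcifuge, 154 and 300 in the high-pH ecotype, and 40.2 and 238 in the low-pH ecotype. 256245_at gave 125 and 697 in the calcicole, 33.2 and 72.1 in the calcifuge, 154 and 395 in the high-pH ecotype, and 86.6 and 265 in the low-pH ecotype. In both, the calcicole at 12.5 mM stood above every other array, and the calcifuge changes of 0.57 and 0.84 were the smallest of the 4.

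The 3 probe sets paired with several genes were 265091_s_at, 267053_s_at and 266772_s_at. The first went from 86.9 to 1024 in the calcifuge, a change of 3.34, against 0.99 to 1.31 in the other lines. The second had its largest change in the calcicole, 1.77, against 0.53 to 0.63 elsewhere. The third was dim, with calcicole signals of 0.692 and 7.86 and its highest signal, 64.7, in the low-pH ecotype at 12.5 mM, so its change of 0.52 in the calcicole is between signals under 16.

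Ordered by the line with the largest change, the members fall into groups of 12 led by the calcicole, 11 by the calcifuge, 3 by the high-pH ecotype and 12 by the low-pH ecotype. Those led by the calcicole include MGL, GSTU16, AT5G62210 and AT2G21820, and had median changes of 1.88 there and 0.70 to 0.98 in the other lines. Those led by the calcifuge hold 1 single gene, AT4G32920, and had a median of 2.01 there and 0.84 to 1.26 elsewhere. TBL26 and AT1G79520 were among those led by the low-pH ecotype, and AT5G12110 and AT2G01220 among those led by the high-pH ecotype.

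**Figure D3:**
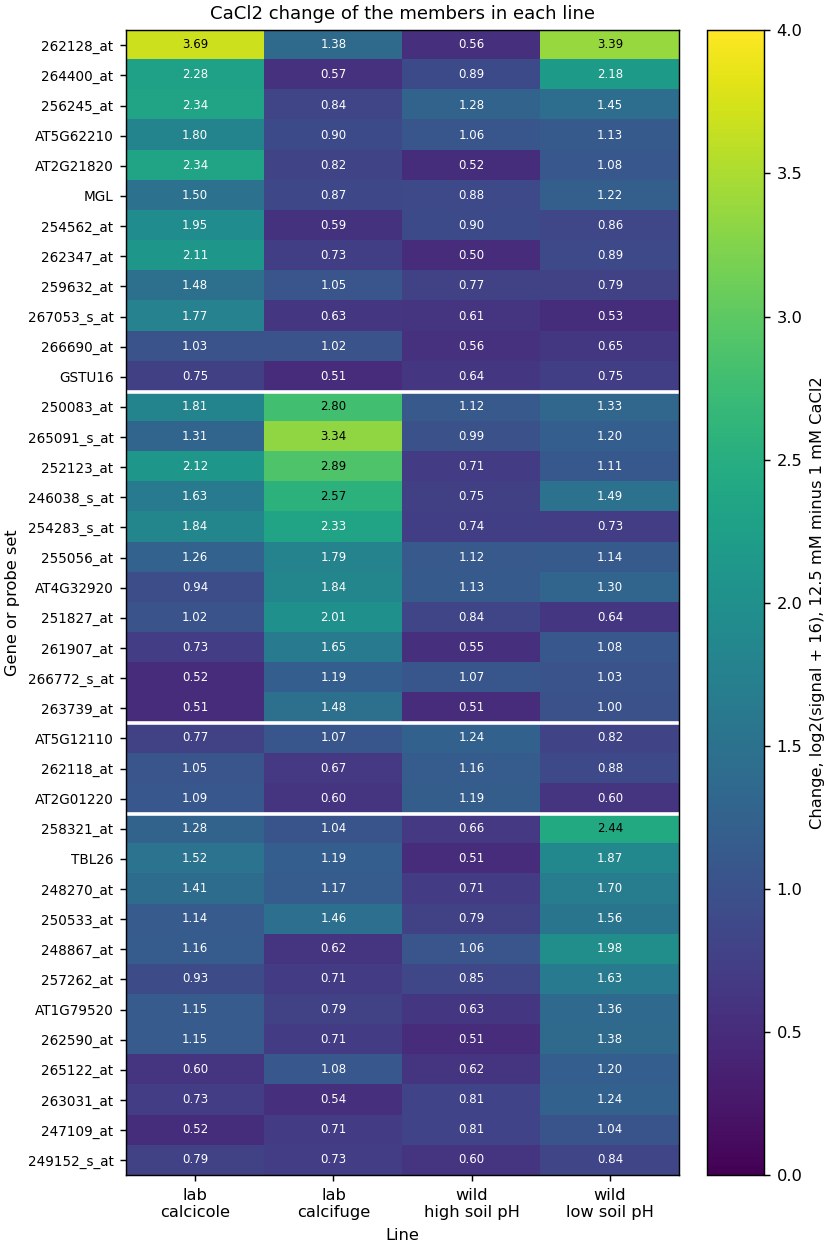
Change in log2(signal + 16) from 1 to 12.5 mM CaCl2 (colour and number) of the 38 members (rows) in each line (columns), with white lines between the groups led by the calcicole, the calcifuge, the high-pH and the low-pH ecotype. The highest value is 3.69, for 262128_at in the calcicole, and the high-pH column has the lowest median, 0.78.

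The pair of lines with the largest changes was the calcicole and the low-pH ecotype in 16 of the 38 members. Both lab lines had larger changes than both wild lines in 10 members, and the reverse held in 2. Both calcicole-class lines had larger changes than both calcifuge-class lines in 3 members, and the reverse held in 5. The SD of the level over the lines was smaller at 12.5 mM than at 1 mM in 15 members, 39.5%, beside 48.0% of all probe sets tested. These counts describe the members and were not tested, as the rule used the same changes. For the pairs of lines the shares over all probe sets were not counted, so the counts show no trait particular to the members. Over all probe sets tested, the SD of the change was 0.40 in the high-pH ecotype. It was 0.51 in the calcicole, 0.48 in the calcifuge and 0.46 in the low-pH ecotype.

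The 6 genes that met the rule but were left out by name were mostly led by the calcifuge. UF3GT, DFR, AT5MAT, AT4G14090 and CHIL, which act in or beside anthocyanin synthesis, each had their largest change in the calcifuge, between 2.04 and 2.66. AT1G47400, a gene of the iron-deficiency response, had its largest change in the calcicole, at 3.73.

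Near the rule's minimum the members merge with the probe sets left outside. The smallest change over the 4 lines was 0.508 for GSTU16, 0.508 for 263739_at and 0.505 for 262347_at. Just outside, it was 0.498 for AT3G57010, 0.495 for AT1G07440 and 0.489 for 245628_at.

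The rule used the level of a member only through its minimum of 20 for the mean over all arrays, and did not use differences in level between lines. The level averaged over both doses was compared between the lines with limma, with Benjamini-Hochberg adjustment over all 15555 probe sets and a threshold of adjusted p under 0.05. The fit has a term for line and a term for dose and 3 residual degrees of freedom. Its spread is how far the lines depart from a shared dose effect, and the doses of a line stand in for replicates, so the tests are about these plants and not about lines in general. The members' median residual SD in that fit was 0.293, against 0.208 over all tested.

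Between the lab and the wild lines, 13 of 38 members passed, 34.2%, beside 15.7% of all probe sets tested. Of them 5 were higher in the mean of the lab lines, beside 8.25% of all tested, and 8 were lower, beside 7.41%. AT5G12110 was lower in the lab lines by 1.30 on the log2 scale (difference -1.30 ± 0.14, SE; limma adjusted p = 0.00270), and each of its 4 wild signals, given above, lay above each of its 4 lab signals. AT1G79520 was lower in the lab lines (difference -0.75 ± 0.16, SE; limma adjusted p = 0.0212). Its level was 7.21 in the calcicole, 7.01 in the calcifuge, 7.42 in the low-pH ecotype and 8.29 in the high-pH ecotype. The difference thus lies mostly in the high-pH ecotype. AT2G01220 was higher in the lab lines (0.72 ± 0.16, SE; limma adjusted p = 0.0221). The second probe set of AT2G01220, 265793_at, went the other way, with a difference of -0.36 that did not pass (limma adjusted p = 0.122), so this call too rests on 1 of the gene's 2 probe sets. MGL and TBL26 did not pass, with differences of -0.52 ± 0.15 (SE; limma adjusted p = 0.0564) and -0.69 ± 0.22 (SE; limma adjusted p = 0.0667).

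The call of AT5G12110 held in every alternative setting and whichever array was left out, with a difference between -1.39 and -1.22. That of AT1G79520 was lost without any of 5 arrays, which were both of the calcicole, the calcifuge at 12.5 mM, the high-pH ecotype at 1 mM and the low-pH ecotype at 12.5 mM, with differences from -0.87 to -0.62 over all leave-outs. That of AT2G01220 was lost without any of 5 arrays, which were the calcicole at 12.5 mM, the calcifuge at 1 mM, both of the high-pH ecotype and the low-pH ecotype at 12.5 mM (0.61 to 0.83). The count of 13 fell to 6 without the calcicole at 12.5 mM or the high-pH ecotype at 1 mM, and to 7 without the high-pH or the low-pH ecotype at 12.5 mM.

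The other members that held their lab-to-wild call in every setting were unnamed. 262118_at was higher in the lab lines by 1.43 ± 0.14 (SE; limma adjusted p = 0.00209), with calcicole signals of 189 and 408 and calcifuge signals of 86.0 and 146, against 25.1 to 98.6 on the wild arrays. 259632_at was lower there (difference -1.30 ± 0.16, SE; limma adjusted p = 0.00372), and so was 248867_at (difference -1.32 ± 0.21, SE; limma adjusted p = 0.00963). Of the rest, the mean of the lab lines was higher for 264400_at, 265122_at and 249152_s_at, by 1.41, 0.76 and 0.53. It was lower for 263739_at, 257262_at, 266772_s_at and 263031_at, with differences of -0.96, -0.68, -0.64 and -0.56. Each of these 7 lost its call without some array or in some other setting. Among these 7, only 265122_at and 263739_at had both lab lines on the same side of both ecotypes. The level of 249152_s_at was lowest in the calcicole, at 6.55, against 6.94 and 7.12 in the ecotypes and 8.57 in the calcifuge. That of 263031_at was highest in the calcifuge, at 7.44, and lowest in the calcicole, at 6.11. 266772_s_at averaged 14.5 on the lab arrays and 31.2 on the wild arrays, so it passed the minimum only through the group where it is higher, and its call supports nothing.

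**Figure D4:**
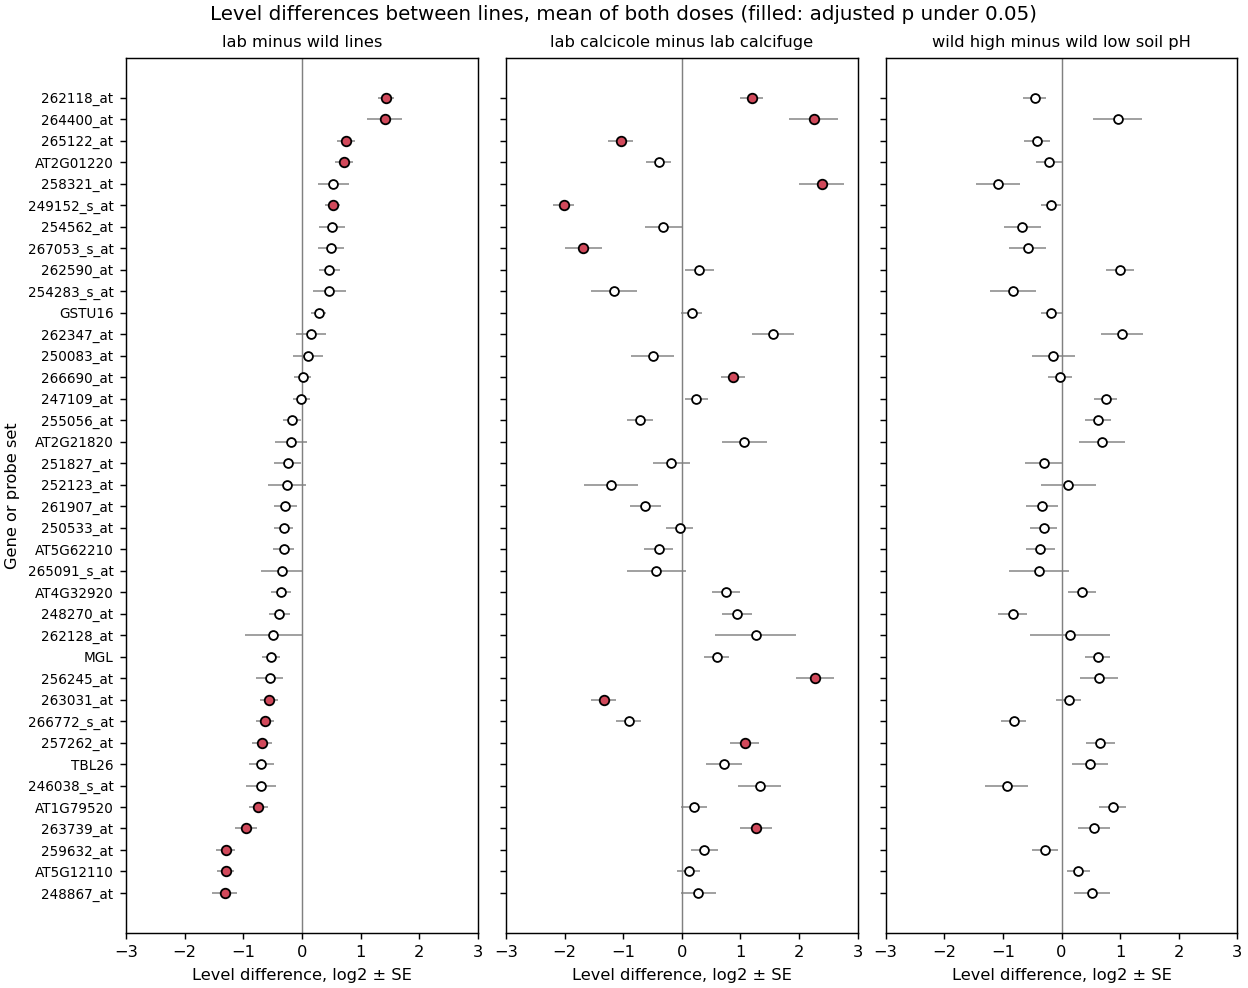
Difference in level between lines, averaged over both doses, in log2(signal + 16) with its SE (horizontal axis) for the 38 members (rows), in the lab against wild, lab calcicole against lab calcifuge, and wild high against wild low soil pH comparisons, with filled points where the limma adjusted p was under 0.05. Filled points number 13, 11 and 0.

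Between the calcicole and the calcifuge, 11 members passed, 28.9%, beside 5.08% of all tested, with 7 of them higher in the calcicole, beside 1.77% of all, and 4 lower, beside 3.31%. All 11 were unnamed or paired with several genes. 249152_s_at was lower in the calcicole (difference -2.01 ± 0.18, SE; limma adjusted p = 0.00250), and 256245_at was higher by 2.27 ± 0.32 (SE; limma adjusted p = 0.0110). Also higher were 258321_at, 264400_at, 263739_at, 262118_at, 257262_at and 266690_at, by 2.38, 2.25, 1.27, 1.20, 1.08 and 0.88, and 267053_s_at, 263031_at and 265122_at were lower, with differences of -1.68, -1.33 and -1.04. 249152_s_at is the member whose CaCl2 change was most alike in the 4 lines, and it was the only one of the 11 to hold its call in every setting. The count was 4 and 3 without the calcicole at 1 and 12.5 mM, and 6 and 5 without the calcifuge at 1 and 12.5 mM. Of the single genes AT4G32920 had the smallest adjusted p, with a difference of 0.75 ± 0.24 (SE; limma adjusted p = 0.115). AT2G21820 differed by 1.07 ± 0.39 (SE; limma adjusted p = 0.156). Its difference was 1.83 without the calcicole at 1 mM, which leaves that line only its 12.5 mM array. That value takes in the large CaCl2 change of the calcicole, 2.34, which the rule used, and is no measure of level alone.

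Between the high-pH and the low-pH ecotypes, 0 members passed in limma, beside 0.36% of all tested. The smallest adjusted p of a member was 0.195, and 12 members had an unadjusted p under 0.05, beside 8.92% of all probe sets tested. The count stayed at 0 with each array left out and in each other setting run.

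Between the calcicole-class and the calcifuge-class lines, 7 members passed, 18.4%, beside 2.33% of all tested. Of these 4 were higher in the calcicole class, beside 0.836% of all, and 3 were lower, beside 1.5%. None of the 7 names a single gene. 249152_s_at differed by -1.096 ± 0.13 (SE; limma adjusted p = 0.00866) and 256245_at by 1.45 ± 0.23 (SE; limma adjusted p = 0.0229). The other higher members were 264400_at, 262347_at and 257262_at, at 1.60, 1.29 and 0.87, and the other lower ones were 267053_s_at and 266772_s_at, at -1.13 and -0.86. Again 266772_s_at, with means of 11.3 in the calcicole class and 34.4 in the calcifuge class, passed the minimum only through the class where it is higher. The count was 0 to 4 when any 1 array was left out, and it was 0 without the low-pH ecotype at 1 mM, so no member kept its class call throughout. The differences themselves kept their sign, and ran from -1.14 to -1.05 for 249152_s_at and from 1.16 to 1.74 for 256245_at over the leave-outs. Others moved more for their size, such as 262347_at, from 0.94 to 1.64, and 267053_s_at, from -1.42 to -0.83. All 7 calls share arrays with the lab comparison. For 249152_s_at the lab lines differed by -2.01 and the ecotypes by -0.18 ± 0.18 (SE; limma adjusted p = 0.882). Its class difference therefore lies mostly in the lab pair. For the others called, the ecotypes differed in the same direction as the lab lines, by 0.58 to 1.03 in size, without passing.

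Genes near the members in function or family were set beside them from lists of known genes, of which the platform annotation names few. For these genes the CaCl2 term of the same limma fit was used. Over all 15555 probe sets it called 0 higher and 3 lower at 12.5 mM, which is 0.0193%, and 1986 had an unadjusted p under 0.05. Of 36 listed genes tested that are not members, 0 passed and 5 had an unadjusted p under 0.05.

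Among the genes of methionine and sulfur metabolism, 4 of 23 were tested, and the 3 besides MGL had mean changes near 0. CBL, cystathionine beta-lyase, was at -0.07, the homocysteine methyltransferase HMT-1 at -0.14, and MMT, methionine S-methyltransferase, at 0.16. Each of these was higher in some lines and lower in others. The list's median change of 0.04 includes MGL, whose change the rule chose, so it is not comparable with the 0.006 over all tested.

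Of the glutathione transferases identified by gene symbol, a family chosen after GSTU16 had been seen, 10 were tested, GSTU16 included. Their median change was -0.04. GSTU15, which lies close to GSTU16 by locus number, was higher in 4 of 4 lines, by 0.44 ± 0.14 (SE; limma adjusted p = 0.262), with a mean signal of 22.0. Its calcifuge signals, 0.995 and 5.06, were both under 16, as was the low-pH ecotype at 1 mM, at 8.38. The change in the high-pH ecotype was only 0.16. None of the other 8 had the same direction in every line. GSTU25 ranged from -3.06 in the calcicole to 1.43 in the calcifuge. A separate list of 23 glutathione transferases, of which 4 were tested and which does not hold GSTU16, had a median change of -0.26, which was 0.009 without the calcicole.

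The TBL family, also taken by symbol after TBL26 had been seen, had 14 tested genes, TBL26 included, and a median change of -0.02. Besides TBL26 none was higher in every line, and 3 were lower in every line. All tested probe sets were higher in every line in 10.2% and lower in every line in 10.4% of cases.

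Among metal transport genes 4 of 25 were tested, with a median change of 0.17 that includes AT1G79520, whose change the rule chose. The mean changes of the others were 0.33 for AT3G58060, -0.02 for MTP11 and 0.01 for AT2G04620. AT3G58060, of the same cation efflux family as AT1G79520, had changes of opposite sign, of 1.22 in the calcicole and 1.73 in the low-pH ecotype against -0.37 in the calcifuge and -1.27 in the high-pH ecotype. AT1G16310, another of the family, was higher in all 4 lines, by 0.32 to 0.99, but its mean signal of 19.9 lies below the minimum and it was not tested. MTP11 and AT2G04620 had mixed signs.

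**Figure D5:**
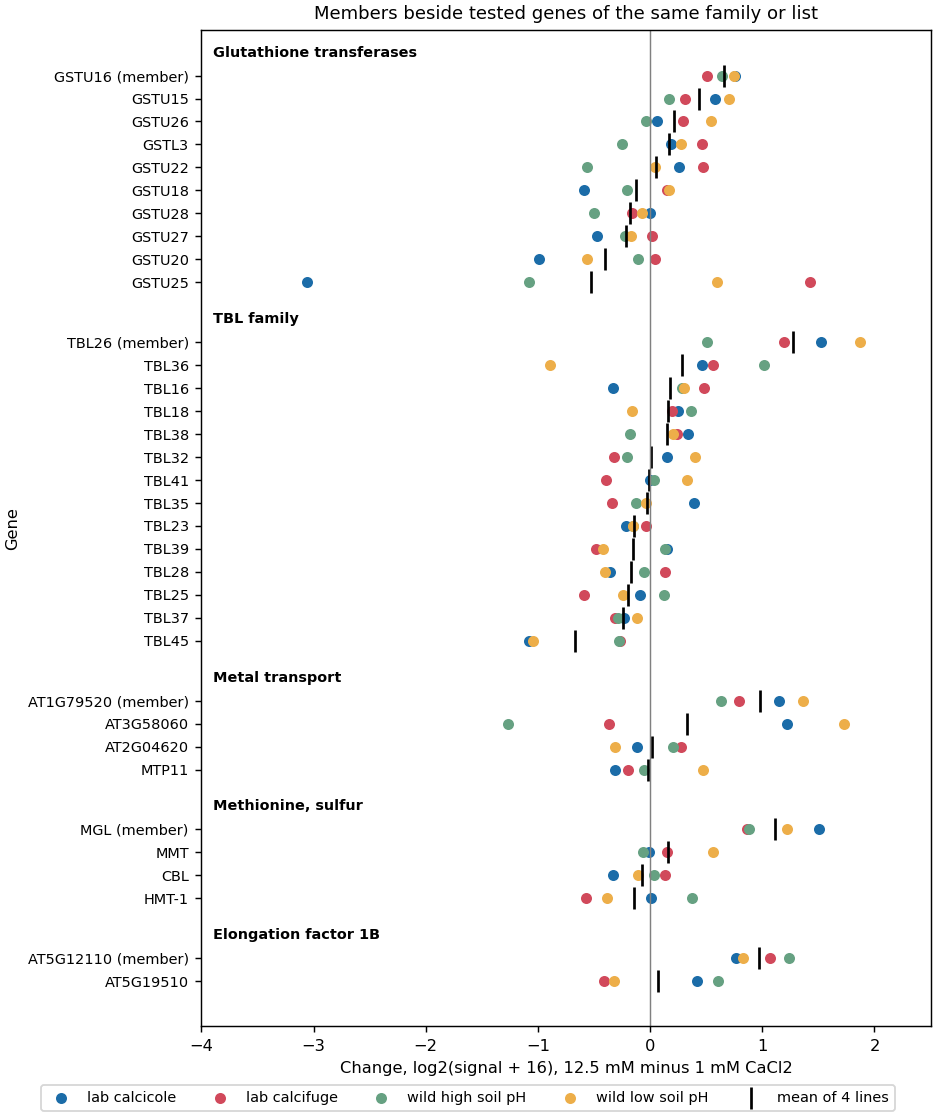
CaCl2 change in log2(signal + 16) (horizontal axis) of members and of tested genes of the same family or list (rows), with a point per line and a black bar for the mean of the 4 lines. The member heads each group, with all its points above 0.5, and among the other genes shown only GSTU15 has all its points above 0.

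AT5G19510, another elongation factor 1B subunit gene, had a mean change of 0.07 and a range of -0.41 to 0.60, beside 0.97 for AT5G12110. Of the calcium transport and storage genes 2 of 21 were tested. CaS, a chloroplast calcium-sensing protein, was at -0.06, and CRT1b, an endoplasmic reticulum calreticulin that binds calcium, was lower in 4 of 4 lines (difference -0.58 ± 0.17, SE; limma adjusted p = 0.220). Of the abscisic acid and osmotic genes only COR47 was tested, at 0.12. The chloride and nitrate list had 0 tested, and the phosphate starvation, flavonoid, flower, seed and senescence lists had 0 named on the array here.

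In whole plants, fewer cells of a type and less RNA per cell cannot be told apart. Of 13 root markers 2 were tested. PYK10, a root beta-glucosidase, was higher at 12.5 mM in 4 of 4 lines by 1.09 ± 0.26 (SE; limma adjusted p = 0.144), from 49.2 to 203 in the calcicole, 247 to 830 in the calcifuge, 132 to 179 in the high-pH ecotype, and 228 to 329 in the low-pH ecotype. The root hair expansin EXPA7 was at -0.27. Of 7 green shoot markers, RCA, the Rubisco activase, was lower in 4 of 4 lines with a mean of -0.33, and PRK, phosphoribulokinase, was at -0.09. The part of root and shoot proportions in the members' changes was not tested.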

How the data were processed

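The authors deposited 1 signal intensity per probe set and array, made with MAS5 per the submitters' processing notes, with the version and settings not given in the sources used here. The intensities were linear and already on a shared scale, so no further scaling was applied. Control probe sets (64) were left out. Signals were taken as log2(signal + 16), the scale of the rule that chose the members, and not with the pseudocount of 2.51 and the filter used in earlier processing of these arrays.

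Line levels and listed genes were tested with limma 3.58.1 in R 4.3.3 (line and dose as terms, lmFit, eBayes, Benjamini-Hochberg over 15555 probe sets), which was tested on simulated data. With arrays, their number limits the precision, and nothing says that the samples came from separate cultures. Detection calls were not used. Names come from the platform table: 13513 probe sets have 1 gene, 503 several and 8730 none, and 13436 matched the TAIR10.1 reference.

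The members and lists were chosen with earlier results of these data known. The text names the single-gene members, the 8 members with the smallest p in a line comparison, the listed genes, and members at the extremes of change, range and signal. Where over 8 members passed, the others were named after their values were seen. Alternatives changed the pseudocount, filter, scaling, variance model, threshold, lines and arrays used. The comparison of line differences and the TBL and glutathione transferase families were added after the data were seen. Promoter motifs and protein sequences were not analysed here. Figures used matplotlib 3.10.9.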

Additional observations from a re-analysis of the deposited data

Results flagged for a closer look

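In 3 members, all unnamed here, the difference between the lab lines was not the same as the difference between the wild lines. This comparison was added after the data were seen. It took lab calcicole minus lab calcifuge, less wild high minus wild low soil pH, in levels averaged over both doses, and 7.89% of members passed beside 1.3% of all probe sets tested. For 258321_at the lab difference exceeded the wild difference by 3.47 ± 0.53 (SE; limma adjusted p = 0.0277). The calcicole was far above the calcifuge at both doses. The high-pH ecotype was below the low-pH ecotype mainly at 12.5 mM, at 340 against 1382, beside 209 against 243 at 1 mM. The ecotype part of this value thus holds their unequal CaCl2 changes, 0.66 and 2.44, which the rule used. For 262118_at the value was 1.66 ± 0.28 (SE; limma adjusted p = 0.0385). For 249152_s_at it was -1.83 ± 0.25 (SE; limma adjusted p = 0.0192), from the calcifuge, whose signals of 278 and 473 stood above those of the other lines at the same dose. None of the 3 held its call in every alternative setting. The count was 0 to 2 when 1 array was left out, and 0 without the calcicole at either dose or without either ecotype at 12.5 mM.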

How the results depend on the processing

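The number of members moved with the rule's own settings. It was 60 with a pseudocount of 1 and 22 with 32, 64 with a minimum change of 0.4, 15 with 0.7 and 2 with 1, and 58 to 203 with 1 line left out (58 without the calcicole or the low-pH ecotype, 81 without the calcifuge, 203 without the high-pH ecotype), since fewer lines then had to meet the minimum. The opposite rule, a fall in every line, gave 94. With median-centred and quantile-normalized arrays 36 and 34 of the 38 were still chosen. The mean changes that moved most with the pseudocount at the 10th percentile were those of dim members, such as 255056_at (2.196) and 266772_s_at (1.73).

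In the line comparisons, the spread taken from the trend alone, which the members' own departures do not enter, gave 8 members and 1595 of all probe sets for lab against wild, 513 of all for the lab lines, 4 of all for the wild lines, 3 members and 158 of all for the class comparison, and 0 members and 16 of all for the comparison of differences. With no filter on low signals, 1539 of all passed for lab against wild, 3 members and 283 of all for the lab lines, 17 of all for the wild lines, 1 member and 68 of all for the class comparison, and 0 members and 29 of all for the comparison of differences. The pseudocount at the 10th percentile gave 6 members and 463 of all for the lab lines, 3 members and 220 of all for the class comparison, and 1 member for the comparison of differences. The cause of these shifts was not tested.

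With 1 array left out, lab against wild gave 6 to 10 members and 659 to 2291 of all, the lab lines 3 to 9 and 164 to 640, the wild lines 0 and 12 to 69, the class comparison 0 to 4 and 41 to 304, and the comparison of differences 0 to 2 and 34 to 162. A line left with 1 array was assumed to vary like the others. Among single genes, the lab-to-wild call of MGL was gained with a pseudocount of 32 and with a mean signal of at least 50. For TBL26, leaving out the high-pH ecotype at 12.5 mM left that line only its 1 mM array. The lab-to-wild difference of TBL26 then took in the small CaCl2 change of that line, 0.51, which the rule used. The class difference of AT2G21820 was 1.26 without the calcicole at 1 mM, which leaves that line only its 12.5 mM array. No called difference of a single gene turned its sign in the settings run. The called differences of the other members kept their sign whichever array was left out, and their signs in the other settings are not given here. No paired analysis was possible because, by replicate number, nothing is paired: all arrays carry number 1. The doses are paired within a line by the line term of the fit. The promoter motif search was not run.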
